A study of Mus musculus with 33 samples.

Results

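The 10 genes described here, Gfap, Gjb6, Gja1, Agt, Slc1a2, Slc1a3, Aqp4, Acsbg1, Aldh1l1 and Mt3, are standard markers of astrocytes. They were taken by symbol from count tables of 26621 gene symbols, and all 10 were found in the RNA-seq, m6A and YTHDF2 tables. Astrocytes are the glial cells that take up glutamate and potassium, couple to each other through gap junctions and wrap blood vessels. Hippocampal neural stem cells are themselves radial glia-like and make several of the same transcripts, and they can become astrocytes when signals such as JAK-STAT, BMP and Notch act on them. m6A is a methyl mark on adenosines of mRNA, and YTHDF2 is a reader protein that binds marked mRNA and speeds its decay.

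The cells were mouse hippocampal neural stem cells, from tissue of postnatal day 0.5, grown with bFGF and EGF. RNA-seq libraries came from cells with the genotype label Nestin-cKO (a conditional knockout of Ythdf2; the promoter in the name is that of Nestin, a filament gene of neural stem cells) or Nestin-WT. Both genotypes were taken at 0, 2 and 4 h of actinomycin D, a drug that blocks transcription, at 5 µM, with 3 libraries each. From untreated Nestin-WT cells, an m6A pull-down was set beside its input (3 libraries each), and RNA pulled down with a YTHDF2 antibody was set beside RNA pulled down with IgG and beside input RNA (3 libraries of each). The RNA-seq libraries were made by SMART-seq2 and the pull-down series by a modified SMART-seq3, so the assays were compared only within themselves.

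Library totals were 10257329 to 21353383 counts in the RNA-seq, 12892222 to 28334300 in the m6A and 8419106 to 23097887 in the YTHDF2 libraries. A library pair of the same group always differed by more than counting noise (lowest chi-square per degree of freedom 6.85). The labels do not say whether replicates were separate cultures or animals, so the p-values measure the spread between these libraries. Ythdf2 went against the genotype label. It held 3117, 1035 and 736 CPM (counts scaled to a common library size) at 0 h in libraries labelled cKO, against 219, 253 and 258 CPM in WT libraries. The edgeR log2 change was 2.74 ± 0.37 (SE, adjusted p = 0.00027) at 0 h, 4.00 ± 0.39 (SE, adjusted p = 9.2e-06) at 2 h and 4.31 ± 0.40 (SE, adjusted p = 5.6e-06) at 4 h. Counts over the whole gene therefore do not check the deletion. Whether the genotype labels are right was not tested, and every genotype direction below follows the labels. In the YTHDF2 series the labels conflict: a library titled as input is described as YTHDF2, and the reverse. The descriptions, which the count columns carry, were used, and the values by title are given beside the results.

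Of the 10 genes, Gjb6, Agt and Slc1a2 were the ones called lower in libraries labelled cKO at all 3 hours. Their promoters, the 250 bases before the transcription start in RefSeq (GRCm38.p6), are shown because these genes moved the same way. The Gjb6 window is chr14:57133612-57133861 on the minus strand, the Agt window chr8:124569707-124569956 on the minus strand and the Slc1a2 window chr2:102706188-102706437 on the plus strand, which lies inside the annotated span of the gene, before one of its transcript starts. Each is written 5′ to 3′ along the gene, and capitals mark matches, on either strand, to a STAT site (TTCNNNGAA), a TATA box (TATAAA) or the core of an NFI site (TTGGC).
Gjb6: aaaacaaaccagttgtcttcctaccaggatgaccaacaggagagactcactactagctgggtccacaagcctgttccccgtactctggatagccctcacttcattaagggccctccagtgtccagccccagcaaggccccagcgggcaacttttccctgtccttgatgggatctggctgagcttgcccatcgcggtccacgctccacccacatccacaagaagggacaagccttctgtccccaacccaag
Agt: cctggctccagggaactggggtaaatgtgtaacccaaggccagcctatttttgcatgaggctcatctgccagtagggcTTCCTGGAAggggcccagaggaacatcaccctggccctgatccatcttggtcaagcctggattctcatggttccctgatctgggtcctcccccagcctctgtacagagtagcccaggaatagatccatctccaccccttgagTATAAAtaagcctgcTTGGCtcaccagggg
Slc1a2: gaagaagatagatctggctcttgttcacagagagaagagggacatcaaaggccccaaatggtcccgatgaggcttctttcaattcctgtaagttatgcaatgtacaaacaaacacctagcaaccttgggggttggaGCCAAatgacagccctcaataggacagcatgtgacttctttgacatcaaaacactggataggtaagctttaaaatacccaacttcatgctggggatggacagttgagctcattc
The Agt window held a STAT match whose first base lay at −172 from the start, a TATA match at −30 and an NFI match at −15. The Slc1a2 window held an NFI match at −114, on the other strand. None of the 3 motifs was found in the Gjb6 window. Among all 32851 promoter windows of the table, 7.02% held the STAT motif, 12.4% the TATA motif and 41.5% the NFI motif, so these matches are descriptions of the windows and no more. Slc1a3 and Acsbg1 also held a STAT match (at −96 and −26).

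Levels between genes were compared per transcript length, with the deposited TPM. In WT libraries at 0 h the highest was Slc1a3 at 2179 ± 323 TPM (SD, n = 3), followed by Mt3 at 482 ± 178 TPM, and the ranges of these did not meet each other or the next gene. Gja1 (181 ± 54 TPM), Gfap (129.6 ± 38.4 TPM), Aqp4 (103 ± 35.2 TPM), Slc1a2 (89.1 ± 7.07 TPM), Acsbg1 (81.1 ± 30.9 TPM) and Agt (72.2 ± 7.06 TPM) followed in that order, and each of them overlapped its neighbour. Aldh1l1 (21.6 ± 7.72 TPM) and Gjb6 (2.05 ± 0.513 TPM) were lowest, each with no overlap with its neighbour. In libraries labelled cKO the order at 0 h again opened with Slc1a3 (1319 ± 765 TPM) and Mt3 (874 ± 459 TPM), whose ranges overlapped there, and it closed with Slc1a2 (25 ± 9.17 TPM), Agt (15.3 ± 4.08 TPM) and Gjb6 (0.0205 ± 0.0355 TPM).

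**Figure D1:**
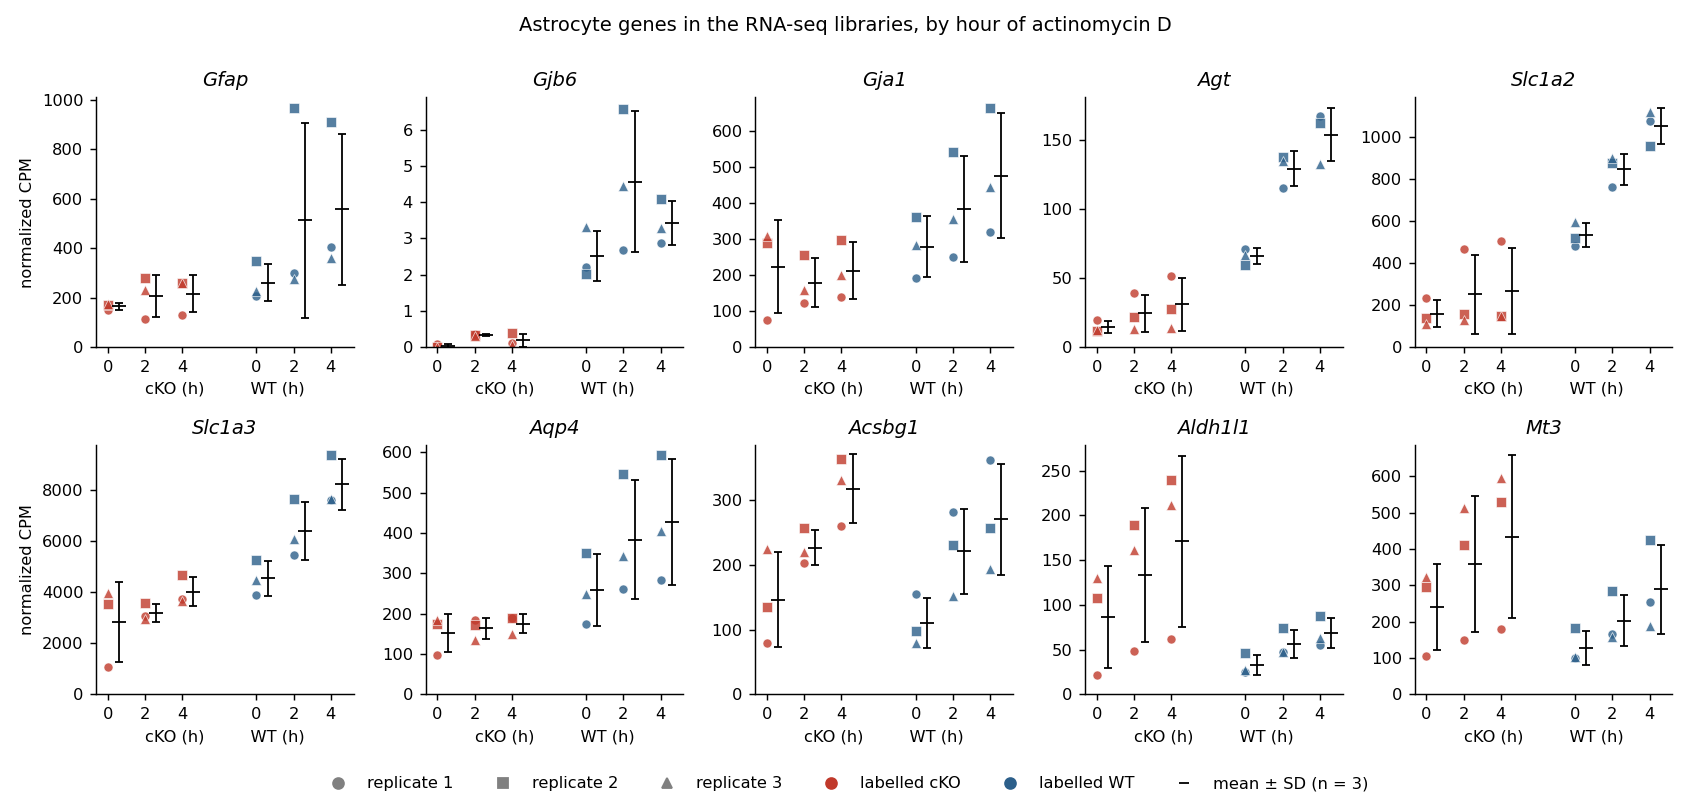
Normalized CPM (vertical axis, from 0, a scale per gene) of the 10 genes in each RNA-seq library, by hour of actinomycin D, libraries labelled cKO on the left and WT on the right. Points are libraries, the shape gives the replicate number and bars are mean ± SD (n = 3). Gjb6, Agt and Slc1a2 sit lower in every library labelled cKO than in any WT library of the same hour, while Aldh1l1 and Mt3 are high in replicates 2 and 3 labelled cKO and not in replicate 1.

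The first comparison asked how the genotype label moved these genes before and during actinomycin D. At 0 h, 3 of the 10 genes were lower in libraries labelled cKO (Gjb6, Agt and Slc1a2) and 0 were higher, where 9.89% of all 14029 genes tested were called lower and 7.71% higher (edgeR quasi-likelihood test, Benjamini-Hochberg adjusted p under 0.05). At 2 h, 5 were lower (Aqp4 and Slc1a3 in addition) and 0 higher, beside 8.54% and 8.52% of all genes. At 4 h, 6 were lower (Gfap in addition) and 0 higher, beside 9.11% and 11% of all genes. The median log2 change of the 10 was −0.67 at 0 h, −1.16 at 2 h and −1.22 at 4 h, against −0.0053, 0.053 and 0.084 over all genes. At an unadjusted p under 0.05, in either direction, there were 6, 8 and 8 of the 10, beside 4854, 4733 and 4983 of the 14029 genes. The share of all calls that were higher, 43.8% at 0 h, was 29.6% with TPM values and 18.8% with scaling to ribosomal protein genes. At 2 h it was 49.9%, but 67.6% with library size alone and 23.1% with ribosomal scaling, and at 4 h 54.8%, 72.4% and 27.4%. In bulk RNA, fewer cells of a type and less RNA per cell cannot be told apart.

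**Figure D2:**
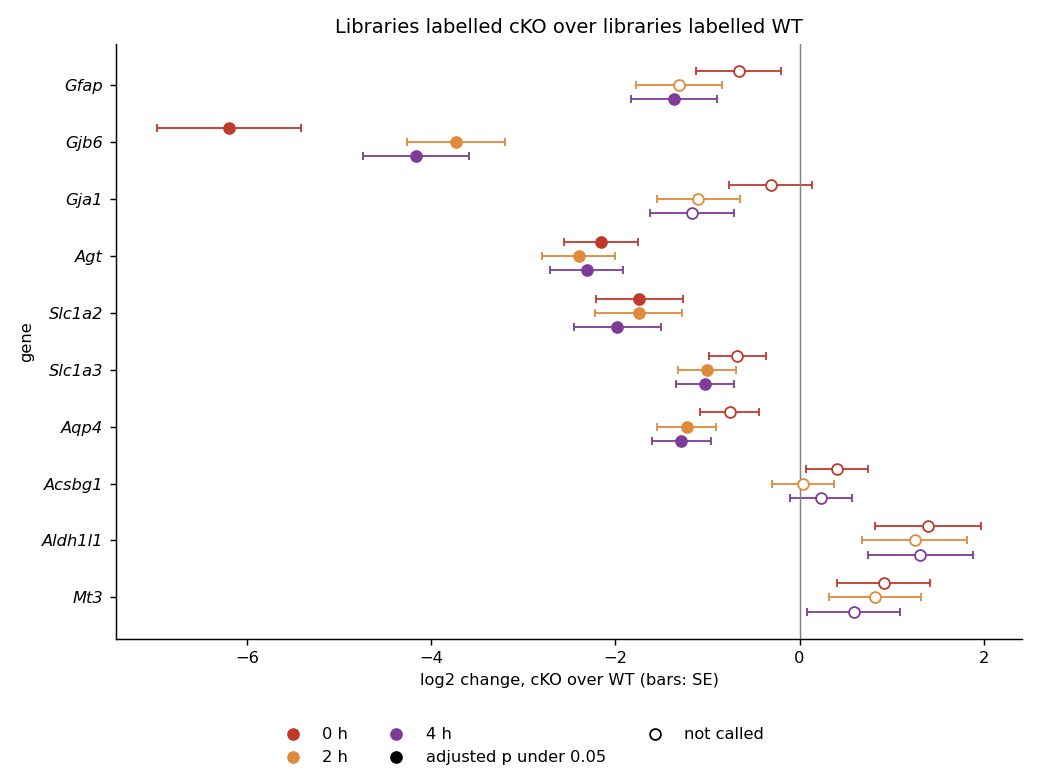
Log2 change of each gene in libraries labelled cKO over WT libraries (horizontal axis) at 0, 2 and 4 h of actinomycin D, with SE bars from the edgeR fit. Filled points passed an adjusted p of 0.05. The 7 genes from Gfap to Aqp4 lie below 0 at all 3 hours and Acsbg1, Aldh1l1 and Mt3 above it, with none of these 3 called.

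Gjb6 encodes the gap junction protein Cx30 and lies on chromosome 14 from 57123301 to 57133611 (gene positions here are those of GRCm38.p6 in RefSeq). At 0 h the libraries labelled cKO held 1, 0 and 0 reads of it, against 33, 24 and 56 reads in WT libraries. At 2 h Gjb6 had 8, 6 and 4 reads in libraries labelled cKO and 46, 85 and 85 in WT. At 4 h Gjb6 had 2, 6 and 1 reads in libraries labelled cKO and 46, 43 and 51 in WT. It was near the limit of detection in all 9 libraries labelled cKO, and the groups did not overlap at any hour. As a ratio of depth-scaled counts, cKO over WT, Gjb6 was at 0.0102 at 0 h (95% interval 0.000255 to 0.0578, from 1 read in all against 113), 0.0768 at 2 h (0.0447 to 0.124) and 0.0541 at 4 h (0.0242 to 0.106). These exact intervals cover counting error only. The fitted log2 changes were −6.20 ± 0.78 (SE, adjusted p = 0.000141), −3.73 ± 0.53 (SE, adjusted p = 0.000332) and −4.17 ± 0.57 (SE, adjusted p = 0.00024), and with so few reads they depend on the prior count of the fit. At 0 h Gjb6 ranked 6 from the lowest of 14029 genes.

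Gja1 encodes Cx43, the main astrocyte connexin, and lies on chromosome 10 from 56377300 to 56390419. At 0 h Gja1 held 73.9, 288 and 308 CPM in libraries labelled cKO and 191, 359 and 283 CPM in WT. At 2 h Gja1 held 123, 255 and 158 CPM in libraries labelled cKO and 251, 541 and 356 CPM in WT. At 4 h Gja1 held 139, 296 and 201 CPM in libraries labelled cKO and 319, 663 and 443 CPM in WT. Replicate 1 labelled cKO was far below the other 2 at 0 h, and the groups overlapped at 0 and 2 h but not at 4 h. The log2 changes, −0.32 ± 0.45 (SE, adjusted p = 0.644), −1.10 ± 0.46 (SE, adjusted p = 0.101) and −1.17 ± 0.46 (SE, adjusted p = 0.0775), were not called. Without replicate 1 labelled cKO of 0 h, the sign of the 0 h change turned, to 0.10 (adjusted p = 0.871). Gja1 at 4 h passed with DESeq2, −1.19 (adjusted p = 0.0376), and at 2 h without the low-count filter, −1.09 (adjusted p = 0.0455). Among 14 further genes, connexins and the pannexin channel gene Panx1, 3 had enough reads to test. Gjc1 (Cx45) was lower at 0 h, −3.50 (adjusted p = 0.0185), and at 2 h, −3.78 (adjusted p = 0.0203). Panx1 was higher at 2 h, 1.04 (adjusted p = 0.048). Gjc3 was not called at any hour.

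Slc1a2 (GLT-1) and Slc1a3 (GLAST) encode the transporters that clear glutamate into astrocytes. Slc1a2 lies on chromosome 2 from 102658239 to 102790784. At 0 h Slc1a2 held 233, 136 and 109 CPM in libraries labelled cKO and 482, 520.4 and 595 CPM in WT. At 2 h Slc1a2 held 467, 159 and 128 CPM in libraries labelled cKO and 762, 874 and 898 CPM in WT. At 4 h Slc1a2 held 505, 149.7 and 145 CPM in libraries labelled cKO and 1076, 956 and 1120.4 CPM in WT. Replicate 1 was the highest of the libraries labelled cKO at each hour, and no library labelled cKO reached a WT library. The log2 changes were −1.74 ± 0.47 (SE, adjusted p = 0.0208), −1.75 ± 0.47 (SE, adjusted p = 0.0203) and −1.98 ± 0.48 (SE, adjusted p = 0.00972). The 0 h call was lost without cKO replicate 2, −1.64 (adjusted p = 0.0638), cKO replicate 3, −1.53 (adjusted p = 0.0774), WT replicate 2, −1.76 (adjusted p = 0.0505), or WT replicate 3, −1.65 (adjusted p = 0.0657). The 2 h call was lost without those same 4 libraries of its own hour (log2 −1.72 to −1.43), and the 4 h call without cKO replicate 3, −1.68 (adjusted p = 0.0501).

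Slc1a3 lies on chromosome 15 from 8634124 to 8710807. At 0 h Slc1a3 held 1060.2, 3516 and 3944 CPM in libraries labelled cKO and 3873, 5248 and 4479 CPM in WT. At 2 h Slc1a3 held 3061, 3568 and 2929 CPM in libraries labelled cKO and 5438, 7644 and 6078 CPM in WT. At 4 h Slc1a3 held 3729, 4674 and 3642 CPM in libraries labelled cKO and 7609.6, 9339 and 7648 CPM in WT. At 0 h the low value was replicate 1 labelled cKO, and replicate 3 reached into the WT range; at 2 and 4 h the groups did not overlap. The log2 changes were −0.67 ± 0.31 (SE, adjusted p = 0.136), −1.003 ± 0.32 (SE, adjusted p = 0.0386) and −1.03 ± 0.32 (SE, adjusted p = 0.0301). Leaving out any 1 of the 6 libraries of the hour ended the 2 h call (log2 −1.11 to −0.86) and the 4 h call (−1.18 to −0.96), as did library size alone, −0.83 (adjusted p = 0.0766) and −0.84 (adjusted p = 0.0667), and TPM values, −1.001 (adjusted p = 0.0574) and −0.999 (adjusted p = 0.0583).

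Of 12 other genes of glutamate uptake and metabolism, 2 were lower at 0 h, 3 at 2 h and 3 at 4 h, with 0, 0 and 2 higher. Over all genes 9.89%, 8.54% and 9.11% were called lower at these hours, and 7.71%, 8.52% and 11% higher. The neuronal-type glutamate transporter Slc1a1 was lower at all 3 hours, −2.55 (adjusted p = 0.0026), −2.60 (adjusted p = 0.002) and −2.28 (adjusted p = 0.00324). Glul, the glutamine synthetase of astrocytes, was lower at 2 h, −0.69 (adjusted p = 0.0231), and 4 h, −0.91 (adjusted p = 0.00462), and Slc1a4, a neutral amino acid transporter, at 2 h, −0.76 (adjusted p = 0.0216), and 4 h, −0.80 (adjusted p = 0.0139). Slc38a2, a glutamine transporter, was the other gene lower at 0 h, −1.13 (adjusted p = 0.00894). At 4 h the neutral amino acid transporter Slc1a5, 1.26 (adjusted p = 0.021), and the aspartate aminotransferase Got1, 0.56 (adjusted p = 0.0416), were higher.

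Gfap, the astrocyte intermediate filament, lies on chromosome 11 from 102887336 to 102897200. At 0 h Gfap held 149, 170.4 and 175 CPM in libraries labelled cKO and 208, 348 and 226 CPM in WT. At 2 h Gfap held 111, 277 and 231 CPM in libraries labelled cKO and 297, 967 and 274 CPM in WT. At 4 h Gfap held 131, 257 and 260.1 CPM in libraries labelled cKO and 403, 909 and 359.5 CPM in WT. WT replicate 2 stood far above the other WT libraries at 2 and 4 h, and the groups overlapped at 2 h only. The log2 changes were −0.66 ± 0.46 (SE, adjusted p = 0.321), −1.31 ± 0.47 (SE, adjusted p = 0.0613) and −1.37 ± 0.47 (SE, adjusted p = 0.0485). At 2 h Gfap was called lower with DESeq2, −1.32 (adjusted p = 0.0244), without the low-count filter, −1.30 (adjusted p = 0.0168), and with ribosomal scaling, −1.52 (adjusted p = 0.0357). It was not called at 2 h with library size alone, −1.13 (adjusted p = 0.0992), or TPM values, −1.15 (adjusted p = 0.0923). The 4 h call sat at the threshold: it was lost when any 1 of the 6 libraries was left out, with a log2 of −0.87 (adjusted p = 0.225) without WT replicate 2, and with library size alone, −1.16 (adjusted p = 0.0824), or TPM values, −1.26 (adjusted p = 0.0701).

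Aqp4 encodes the water channel of astrocyte endfeet. At 0 h Aqp4 held 98.4, 174 and 185 CPM in libraries labelled cKO and 174, 351 and 248 CPM in WT. At 2 h Aqp4 held 184, 171 and 136 CPM in libraries labelled cKO and 262, 547 and 342 CPM in WT. At 4 h Aqp4 held 188, 189 and 149 CPM in libraries labelled cKO and 284, 594 and 404 CPM in WT. The groups overlapped at 0 h and not at 2 or 4 h. The log2 changes were −0.76 ± 0.32 (SE, adjusted p = 0.104), −1.23 ± 0.32 (SE, adjusted p = 0.0181) and −1.28 ± 0.32 (SE, adjusted p = 0.0124). The 2 h call was lost without cKO replicate 2, −1.26 (adjusted p = 0.0531), cKO replicate 3, −1.11 (adjusted p = 0.0815), or WT replicate 2, −0.88 (adjusted p = 0.0992), and the 4 h call without cKO replicate 3, −1.18 (adjusted p = 0.0576), or WT replicate 2, −1.02 (adjusted p = 0.0559).

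Agt encodes angiotensinogen, the secreted precursor of the angiotensins, which astrocytes make in brain. The gene lies on chromosome 8 from 124556587 to 124569706. At 0 h Agt held 19.8, 11.7 and 12.6 CPM in libraries labelled cKO and 70.7, 59.5 and 66.5 CPM in WT. At 2 h Agt held 38.7, 21.6 and 12.7 CPM in libraries labelled cKO and 115, 138 and 135 CPM in WT. At 4 h Agt held 51.5, 27.3 and 13.9 CPM in libraries labelled cKO and 167, 162 and 132 CPM in WT. No library labelled cKO reached a WT library at any hour. The log2 changes, −2.16 ± 0.40 (SE, adjusted p = 0.00277), −2.40 ± 0.40 (SE, adjusted p = 0.00131) and −2.31 ± 0.40 (SE, adjusted p = 0.00122), were called under every alternative tried, each left-out library included, as were those of Gjb6.

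Acsbg1, an acyl-CoA synthetase, lies on chromosome 9 from 54604886 to 54661885. At 0 h Acsbg1 held 79.1, 136 and 224 CPM in libraries labelled cKO and 155, 98 and 79 CPM in WT. The values at 2 h were 204, 257 and 221 CPM in libraries labelled cKO and 282, 231 and 152 CPM in WT, and at 4 h 260.1, 363 and 332 CPM in libraries labelled cKO and 362, 257 and 193 CPM in WT. The groups overlapped at each hour, and the log2 changes were 0.41 ± 0.34 (SE, adjusted p = 0.407), 0.04 ± 0.33 (SE, adjusted p = 0.956) and 0.23 ± 0.33 (SE, adjusted p = 0.645). Without replicate 3 labelled cKO of 0 h, the sign of the 0 h change turned, to −0.039 (adjusted p = 0.95).

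Aldh1l1 (on chromosome 6 from 90550768 to 90599171) is a folate enzyme used to mark astrocytes. At 0 h Aldh1l1 held 22.3, 107 and 130.3 CPM in libraries labelled cKO and 25.4, 46.3 and 27.2 CPM in WT. At 2 h Aldh1l1 held 48.8, 189.7 and 161 CPM in libraries labelled cKO and 47.1, 74 and 47.2 CPM in WT. At 4 h Aldh1l1 held 61.8, 240 and 211 CPM in libraries labelled cKO and 55.4, 88 and 63.1 CPM in WT. Replicates 2 and 3 labelled cKO were above every WT library at each hour, while replicate 1 lay within or close to the WT range. The log2 changes, 1.40 ± 0.58 (SE, adjusted p = 0.0969), 1.25 ± 0.57 (SE, adjusted p = 0.134) and 1.31 ± 0.57 (SE, adjusted p = 0.111), were not called in edgeR. Aldh1l1 was called higher at 0 h with DESeq2, 1.44 (adjusted p = 0.0413), and at 0 and 4 h without the low-count filter, 1.44 (adjusted p = 0.0308) and 1.31 (adjusted p = 0.0446). Leaving out replicate 1 labelled cKO of the hour gave a call at each hour, 1.85 (adjusted p = 0.0226) at 0 h, 1.64 (adjusted p = 0.0383) at 2 h and 1.68 (adjusted p = 0.0353) at 4 h.

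Mt3 (on chromosome 8 from 94152607 to 94154148) encodes a brain metallothionein that binds zinc and copper. At 0 h Mt3 held 105, 296 and 323 CPM in libraries labelled cKO and 99, 182 and 103 CPM in WT. At 2 h Mt3 held 149.8, 412 and 514 CPM in libraries labelled cKO and 167, 284 and 159 CPM in WT. At 4 h Mt3 held 179, 529 and 596 CPM in libraries labelled cKO and 254, 425 and 189 CPM in WT. As for Aldh1l1, replicates 2 and 3 labelled cKO exceeded every WT library at each hour and replicate 1 did not. The log2 changes were 0.91 ± 0.51 (SE, adjusted p = 0.207), 0.82 ± 0.50 (SE, adjusted p = 0.262) and 0.59 ± 0.50 (SE, adjusted p = 0.417). The 2 other metallothioneins tested, Mt1 and Mt2, were not called at any hour (Mt2 at 4 h, 0.86 (adjusted p = 0.0663)).

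Replicate 1 labelled cKO stood apart from replicates 2 and 3 in several of the 10 genes: lower in Slc1a3, Gja1, Aldh1l1 and Mt3 at 0 h, and higher in Slc1a2 and Agt. It was also the library with the highest Ythdf2 at 0 h. Without replicate 1 labelled cKO at all hours, the genes called were 3 lower and 2 higher at 0 h, 5 lower and 2 higher at 2 h, and 6 lower (Gja1 among them, Gfap not) and 2 higher at 4 h. Under that setting 2351 of all 14301 genes tested were called lower and 1971 higher at 0 h, 2659 lower and 2619 higher at 2 h, and 2537 lower and 2918 higher at 4 h, against 1387 and 1082, 1198 and 1195, and 1278 and 1549 of 14029 with all libraries. The 2 higher genes were then Aldh1l1, 1.85 (adjusted p = 0.000185) at 0 h, 1.65 (adjusted p = 0.000277) at 2 h and 1.71 (adjusted p = 0.000186) at 4 h, and Mt3, 1.27 (adjusted p = 0.00842), 1.19 (adjusted p = 0.00965) and 0.96 (adjusted p = 0.028). Without replicate 2 labelled cKO at all hours, Gjb6 and Agt were the 2 genes left at each hour, where 730 of 14259 genes were called lower at 0 h, 438 at 2 h and 562 at 4 h.

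The summed level of the 10 genes was 1841, 4835 and 5411 CPM in libraries labelled cKO and 5280, 7216 and 6110 CPM in WT at 0 h, most of it Slc1a3. Marker lists of other cell types moved with the genotype label too, where 9.89% of all genes were called lower and 7.71% higher at 0 h. Of 8 fibroblast and meningeal markers, 6 were higher at each hour (Dcn 4.87, Lum 5.75, Col3a1 4.19 and Postn 3.54 at 0 h), their summed level at 0 h was 26.7, 56.1 and 78.3 CPM in libraries labelled cKO and 2.7, 7.08 and 5.81 CPM in WT, and none of the 8 was at 0 in either group. Of 10 oligodendrocyte lineage markers, 5 were lower and 1 higher at 0 h, with sums of 574, 301 and 246 CPM in libraries labelled cKO and 519, 647 and 585 CPM in WT and no marker at 0. Of 7 neuronal markers in the table, 4 were lower at 0 h, with sums of 73.6, 53.5 and 64.3 CPM in libraries labelled cKO and 245, 194 and 248 CPM in WT and no marker at 0. Of 8 neural stem cell markers, 4 were lower and 1 higher, with sums of 6178, 7545 and 4107 CPM in libraries labelled cKO and 8813, 9327 and 9352 CPM in WT, also with none at 0. Microglial, endothelial and ependymal lists summed to 0.248 to 5.89 CPM per library at 0 h, with Csf1r, Tmem119, Cldn5 and Cdh5 at 0 in both genotypes. What part these differences in other cell types have in the values of the 10 genes was not tested.

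Beyond the 10, a list of 30 further astrocyte genes held 7 lower and 2 higher at 0 h, 13 lower and 0 higher at 2 h, and 16 lower and 0 higher at 4 h, with medians of −0.73, −0.87 and −1.02. The list was chosen with earlier results of these data known, so it is no independent check of the 10. Of all genes, 9.89%, 8.54% and 9.11% were called lower at these hours, and 7.71%, 8.52% and 11% higher. The lower genes at 0 h with the smallest p-values were Cldn10, a claudin, −2.69 (adjusted p = 1.29e-05), Slc39a12, a zinc transporter, −1.83 (adjusted p = 0.00465), Ntsr2, a neurotensin receptor, −2.34 (adjusted p = 0.00668), and Fgfr3, an FGF receptor, −1.05 (adjusted p = 0.00991). The higher genes at 0 h were Mlc1, 0.81 (adjusted p = 0.0295), and Hepacam, 0.93 (adjusted p = 0.0318), which encode partners in an astrocyte membrane complex. Of 20 genes of reactive astrocytes, 19 were tested; 4 were higher and 0 lower at 0 h (Cd44 1.17, Vim 1.45, Serping1 1.85 and S100a10 0.80), and 3 were higher and 0 lower at 2 h and at 4 h. Of 30 regulators of astrocyte formation tested, 3 were lower at 0 h: the Notch effector Hes5, −3.90 (adjusted p = 0.000387), Stat3, the transcription factor of the JAK-STAT route to astrocytes, −0.86 (adjusted p = 0.022), and the BMP receptor Bmpr2, −1.02 (adjusted p = 0.015). The 4 higher were the BMP-responsive Id1, 2.58 (adjusted p = 0.00283), and Id3, 1.27 (adjusted p = 0.0426), and the transcription factors Lhx2, 0.91 (adjusted p = 0.0261), and Nfix, 0.72 (adjusted p = 0.0337). These regulator counts stood beside 9.89% of all genes lower and 7.71% higher. The median of the 30 regulators was 0.015, against −0.0053 over all genes.

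By likeness of pattern over the 6 group means of genotype and hour (18 libraries), the genes nearest to Gjb6 among 9437 were Slc1a1, Fstl5 and Car8, with root mean square differences of 0.162, 0.173 and 0.189 in centred log2 CPM. For Slc1a3 they were Rprd1a, Arl6ip1 and Cplx1 (0.0595, 0.0624 and 0.0675). A value of 0.5 CPM was added before the log. Gjb6 lay below it in libraries labelled cKO, at mean levels of 0.0276, 0.332 and 0.186 CPM at 0, 2 and 4 h. Its pattern was flattened there, so its nearest genes depend on the added value.

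The second comparison followed the 10 genes after transcription was blocked. Values are shares of what was left in each library, so a gene whose RNA lasts longer than most has a larger share at 4 h than at 0 h. In libraries labelled cKO, 2 of the 10 rose in share by 4 h (Acsbg1 and Agt) and 0 fell, where 12.1% of all genes were called higher and 18% lower. In WT libraries 3 rose (Acsbg1, Agt and Slc1a3) and 0 fell, beside 15.6% and 24.2% of all genes. The median log2 change of the 10 was 0.80 in libraries labelled cKO and 1.02 in WT, against 0.083 and 0.0049 over all genes. At an unadjusted p under 0.05, in either direction, there were 3 of the 10 in libraries labelled cKO and 7 in WT, beside 5727 and 6765 of the 14029 genes.

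The log2 change of Acsbg1 was 1.12 ± 0.34 (SE, adjusted p = 0.019) in libraries labelled cKO and 1.29 ± 0.34 (SE, adjusted p = 0.00601) in WT, and its 0 and 4 h libraries did not overlap in either genotype. Agt changed by 1.07 ± 0.39 (SE, adjusted p = 0.0467) in libraries labelled cKO and by 1.23 ± 0.38 (SE, adjusted p = 0.0171) in WT, with overlap between hours in libraries labelled cKO only. The log2 change of Slc1a3 was 0.50 ± 0.31 (SE, adjusted p = 0.246) in libraries labelled cKO, which was not called, and 0.85 ± 0.31 (SE, adjusted p = 0.0386) in WT, again with overlap in libraries labelled cKO only. Mt3 had 0.85 ± 0.50 (SE, adjusted p = 0.22) in libraries labelled cKO and 1.18 ± 0.51 (SE, adjusted p = 0.0748) in WT. Gfap had 0.39 ± 0.46 (SE, adjusted p = 0.564) in libraries labelled cKO and 1.10 ± 0.47 (SE, adjusted p = 0.0709) in WT. Gja1 had −0.07 ± 0.45 (SE, adjusted p = 0.92) in libraries labelled cKO, the lone value below 0, and 0.77 ± 0.45 (SE, adjusted p = 0.187) in WT. The remaining 4 genes, Aldh1l1, Slc1a2, Aqp4 and Gjb6, had values above 0 in both genotypes and were not called.

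**Figure D3:**
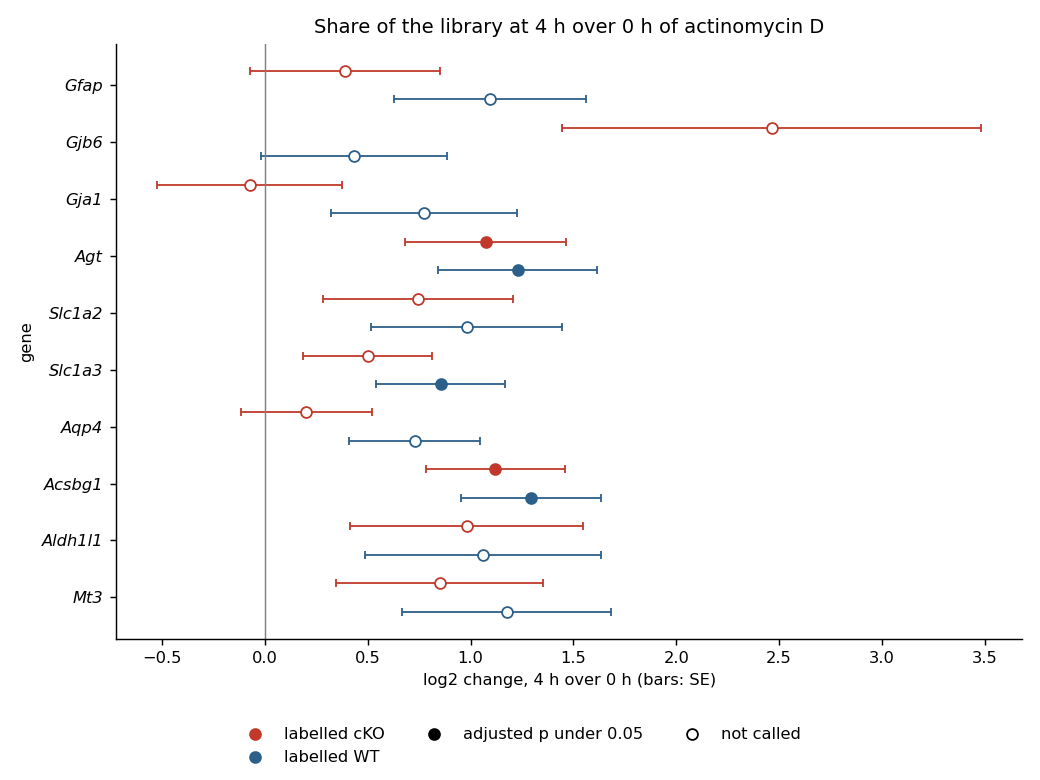
Log2 change in the share of the library at 4 h over 0 h of actinomycin D (horizontal axis) for each gene in libraries labelled cKO and in WT libraries, with SE bars. Filled points passed an adjusted p of 0.05. All 10 genes lie above 0 in WT libraries and 9 of 10 in libraries labelled cKO, where Gja1 is at −0.07, and Gjb6 has the widest bar.

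Replicate numbers paired the hours of a genotype, so the same contrasts were also fitted with the number as a block. Then 5 of the 10 rose in libraries labelled cKO, with Aldh1l1 1.09 (adjusted p = 4e-05), Mt3 0.83 (adjusted p = 2.75e-05) and Slc1a2 0.55 (adjusted p = 0.00952) in addition, where 2966 of 14029 genes were called higher and 3239 lower. In WT libraries 9 of the 10 rose under the block, where 3332 genes were called higher and 4084 lower, with Mt3 1.15 (adjusted p = 9.88e-07), Aldh1l1 1.09 (adjusted p = 2.82e-05), Slc1a2 0.99 (adjusted p = 8.31e-05), Gfap 0.98 (adjusted p = 0.00136), Aqp4 0.72 (adjusted p = 0.00461) and Gja1 0.76 (adjusted p = 0.00963) added. Gjb6 was the gene not called. When the 6 compared libraries were fitted alone, 0 of the 10 passed in libraries labelled cKO, where 149 of 12772 genes were called higher and 1298 lower, and 9 rose in WT, where 3635 of 12671 were called higher and 4308 lower.

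These rises are relative. Scaled to library size alone, the median of all genes moved to −0.15 in libraries labelled cKO and −0.33 in WT, with TPM values to −0.21 and −0.32, and with ribosomal protein genes as the scale to −0.63 and −0.71. The share of all calls that were higher was 40.1% in libraries labelled cKO and 39.2% in WT. It was 14.0% and 13.7% with library size alone, 6.75% and 6.19% with TPM values and 0.589% and 0.807% with ribosomal scaling. Under ribosomal scaling Acsbg1 had a log2 change of 0.33 (adjusted p = 0.553) in libraries labelled cKO and 0.56 (adjusted p = 0.275) in WT, Agt of 0.34 (adjusted p = 0.52) in libraries labelled cKO and 0.50 (adjusted p = 0.299) in WT, and Slc1a3 in WT of 0.13 (adjusted p = 0.81), and none of the 10 was called. Single libraries mattered as well: in libraries labelled cKO the Agt call was lost without replicate 2 or 3 of 0 h or replicate 1 or 2 of 4 h (log2 0.45 to 1.13), and the Acsbg1 call without replicate 1 or 2 of 0 h or replicate 2 of 4 h (0.82 to 1.07). In WT the Slc1a3 call was lost without any 0 h replicate or replicate 2 of 4 h (0.73 to 0.97), and the Agt call without replicate 2 or 3 of 0 h (1.16 and 1.24).

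Whether the hourly change differed between genotypes was tested as the difference of linear slopes over 0, 2 and 4 h. None of the 10 genes passed with edgeR, and 0 were at an unadjusted p under 0.05 (1184 of all genes). In edgeR 0.00713% of all genes were called with a higher and 0.00% with a lower slope in libraries labelled cKO. With DESeq2 0 of the 10 passed, where 45 of all 14029 genes were called with a higher and 19 with a lower slope. With the replicate number as a block 0 of the 10 passed, beside 65 genes with a higher and 24 with a lower slope. The differences lay between −0.21 log2 per hour for Gja1 (−0.21 ± 0.15, SE) and 0.20 for Gjb6 (0.20 ± 0.28, SE), with a median of −0.071. Aqp4, Slc1a3 and Gfap, which were called by genotype at 2 or 4 h and not at 0 h, had slope differences of −0.13 ± 0.11, −0.09 ± 0.10 and −0.18 ± 0.17 log2 per hour (SE), so a change of the genotype difference with time was not called for them.

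**Figure D4:**
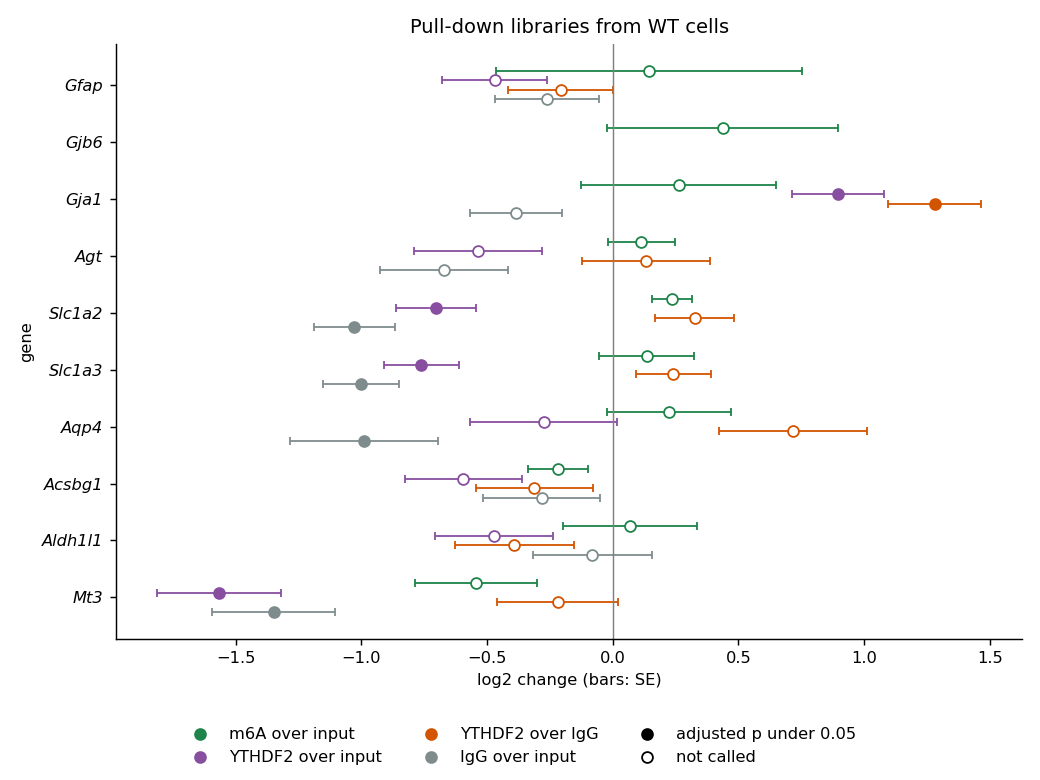
Log2 change of each gene (horizontal axis) in the m6A pull-down over its input, the YTHDF2 pull-down over input and over IgG, and the IgG pull-down over input, with SE bars, in WT cells. Filled points passed an adjusted p of 0.05. Gja1 is to the right in both YTHDF2 comparisons, and Slc1a2, Slc1a3 and Mt3 are to the left of 0 for YTHDF2 and for IgG over input alike. Gjb6 had too few reads for the YTHDF2 series. All values are from the fits without pairing by number.

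The third comparison set the m6A pull-down beside its input. None of the 10 genes was called in edgeR without pairing (1 at an unadjusted p under 0.05, and 1 called with DESeq2). In that fit 6.06% of all 14167 genes were called higher and 14.3% lower, and 4716 were at an unadjusted p under 0.05. The test took the 3 pull-down and 3 input libraries as separate samples and did not pair them by number. The labels give numbers only. Same-number correlations were 0.341, 0.427 and 0.071 for numbers 1, 2 and 3, and 6 of 6 libraries correlated best with their own number. With the number as a block, Gfap, Gja1, Slc1a2, Slc1a3 and Aqp4 were called higher and Acsbg1 and Mt3 lower. Under the block 2441 of all 14167 genes were called higher and 2932 lower. The values below are those without pairing, so their SE includes any spread that pull-down and input of the same number share. The median of the 10 was 0.14, against 0.0096 over all genes. Slc1a2 came nearest, with 1655, 1799 and 1828 CPM in the pull-down and 1338, 1538 and 1608 CPM in the input. The groups did not overlap, and the log2 change was 0.24 ± 0.08 (SE, adjusted p = 0.0664). With DESeq2 it was 0.25 (adjusted p = 0.0345).

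Mt3 had the lowest log2 change, −0.54 ± 0.24 (SE, adjusted p = 0.152), from 80.4, 130.1 and 79 CPM in the pull-down and 107, 191 and 123 CPM in the input. It was called lower without pull-down replicate 2, −0.82 (adjusted p = 0.026). Gfap varied most between replicates, at 411, 1678 and 583 CPM in the pull-down and 315, 1537 and 565 CPM in the input, and its change of 0.14 ± 0.61 (SE, adjusted p = 0.901) has the widest error of the 10. In both groups replicate 2 was the high one. Gja1 had 251, 636 and 366 CPM in the pull-down and 196, 545 and 302 CPM in the input, a log2 change of 0.26 ± 0.39 (SE, adjusted p = 0.688). Slc1a3 had 3687, 5732 and 4376 CPM in the pull-down and 3312, 5349 and 3899 CPM in the input, 0.14 ± 0.19 (SE, adjusted p = 0.672). Gjb6, with 41, 32 and 42 reads in the pull-down and 9, 42 and 11 in the input, had a log2 change of 0.44 ± 0.46 (SE, adjusted p = 0.558) and was not called.

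The other 4 genes had log2 changes of 0.22 ± 0.25 (Aqp4), 0.11 ± 0.13 (Agt), 0.07 ± 0.27 (Aldh1l1) and −0.22 ± 0.12 (Acsbg1), each with SE and none called. Scale mattered here: the share of all calls that were higher, 29.8%, was 73.7% with library size alone and 90.4% with TPM values, where the median of all genes moved to 0.22 and 0.40. With TPM values 4 of the 10 were called higher (Slc1a2, Agt, Slc1a3 and Aqp4), where 7236 of all 14167 genes were called higher and 770 lower. Of the 30 further astrocyte genes, 2 were lower, Cldn10 −1.03 (adjusted p = 0.000547) and Apoe −0.41 (adjusted p = 0.0195), and 1 was higher, Sox9 0.24 (adjusted p = 0.0281). Of all genes, 14.3% were called lower and 6.06% higher in that edgeR fit.

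The fourth comparison used the YTHDF2 pull-down. Of the 10 genes 9 had enough reads to test. Against IgG, 1 was higher (Gja1) and 0 were lower, where 14.3% of all 14255 genes were called higher and 0.330% lower. Against input, 1 was higher (Gja1) and 3 were lower (Mt3, Slc1a3 and Slc1a2), beside 30.7% and 17.5% of all genes. The IgG pull-down against input had 0 higher and 4 lower (Slc1a2, Slc1a3, Mt3 and Aqp4), beside 20.2% and 17.0% of all genes. Both YTHDF2 comparisons share the pull-down libraries, and IgG and YTHDF2 over input share the input.

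Gja1 held 443, 548 and 453 CPM in the YTHDF2 pull-down, 219, 178 and 198 CPM in the IgG pull-down and 264, 203 and 309 CPM in the input. Every YTHDF2 library was above every IgG and input library. The log2 change was 1.28 ± 0.19 (SE, adjusted p = 0.000443) over IgG and 0.90 ± 0.18 (SE, adjusted p = 0.00204) over input, and −0.38 ± 0.18 (SE, adjusted p = 0.122) for IgG over input. Over IgG, 91.3% of all genes had a smaller log2 change than Gja1, and over input 74.6%. The call over IgG was kept under each left-out library and each scaling, but with libraries named by the sample titles it was lost, 0.38 (adjusted p = 0.122), and the change over input turned to −0.90 (adjusted p = 0.00204). In the main edgeR fit of the genotype comparison Gja1 was not called at any hour. Gja1 passed as lower in libraries labelled cKO at 2 h without the low-count filter, −1.09 (adjusted p = 0.0455), and at 4 h with DESeq2.

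The other connexin, Gjb6, had 20, 8 and 10 reads in the YTHDF2 pull-down, 12, 7 and 4 in IgG and 4, 4 and 4 in the input, too few to test. Of 5 further genes tested, connexins and the pannexin Panx1, the lone call was Panx1. It was higher over IgG, 1.68 (adjusted p = 0.00183), and over input, 0.79 (adjusted p = 0.0389). No further connexin was called in these 2 comparisons.

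Slc1a2 held 453, 609 and 584 CPM in the YTHDF2 pull-down, 418, 465 and 430.5 CPM in IgG and 846, 894 and 938 CPM in the input. Slc1a3 held 1899, 2282 and 2013 CPM in the YTHDF2 pull-down, 1803, 1715 and 1724 CPM in IgG and 3844, 3282 and 3370.1 CPM in the input. Both transporters were below the input in each pull-down with no overlap. Slc1a2 was lower in YTHDF2, −0.70 ± 0.16 (SE, adjusted p = 0.00365), and in IgG, −1.03 ± 0.16 (SE, adjusted p = 0.000548), and YTHDF2 over IgG gave 0.33 ± 0.16 (SE, adjusted p = 0.222). Slc1a3 was lower in YTHDF2, −0.76 ± 0.15 (SE, adjusted p = 0.00159), and in IgG, −1.002 ± 0.15 (SE, adjusted p = 0.000452), and YTHDF2 over IgG gave 0.24 ± 0.15 (SE, adjusted p = 0.341). With TPM values the changes over input in the YTHDF2 pull-down were −0.32 (adjusted p = 0.158) for Slc1a2 and −0.38 (adjusted p = 0.0766) for Slc1a3. With libraries named by the sample titles, the sign of the changes over input turned, to 0.70 (adjusted p = 0.00365) for Slc1a2 and 0.76 (adjusted p = 0.00159) for Slc1a3.

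Mt3 held 224, 156 and 128 CPM in the YTHDF2 pull-down, 258, 168 and 164 CPM in IgG and 416, 553 and 534 CPM in the input. It was lower than the input in YTHDF2, −1.57 ± 0.25 (SE, adjusted p = 0.000369), and in IgG, −1.35 ± 0.24 (SE, adjusted p = 0.00137), and the 2 pull-downs overlapped, −0.22 ± 0.24 (SE, adjusted p = 0.591). By the sample titles the Mt3 change over input was 1.57 (adjusted p = 0.000369). Aqp4 held 279, 364 and 532 CPM in the YTHDF2 pull-down, 226, 175 and 315 CPM in IgG and 478, 331 and 612 CPM in the input. It was lower in IgG than in input, −0.99 ± 0.29 (SE, adjusted p = 0.0202), a call lost without IgG replicate 2, −0.81 (adjusted p = 0.0734), or input replicate 3, −0.77 (adjusted p = 0.0854). Its YTHDF2 changes were −0.27 ± 0.29 (SE, adjusted p = 0.46) over input and 0.72 ± 0.29 (SE, adjusted p = 0.145) over IgG.

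Gfap was among the most abundant of the 10 in this series, at 2311, 1795 and 2906 CPM in the YTHDF2 pull-down, 2374, 2344 and 3377 CPM in IgG and 3449.6, 3089.8 and 3167 CPM in the input. Its changes were −0.47 ± 0.21 (SE, adjusted p = 0.0826) over input and −0.21 ± 0.21 (SE, adjusted p = 0.556) over IgG. The other 3 genes were also uncalled. Agt had −0.54 ± 0.25 over input and 0.13 ± 0.25 over IgG, Acsbg1 −0.59 ± 0.23 over input and −0.31 ± 0.23 over IgG, and Aldh1l1 −0.47 ± 0.24 over input and −0.39 ± 0.24 over IgG (log2, each ± SE). The median of the 9 genes was −0.54 over input and 0.13 over IgG, and −0.67 for IgG over input, against 0.23, −0.077 and 0.00019 over all genes.

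The replicate numbers paired the libraries of this series, and with the number as a block 1 gene was higher and 7 lower over input (Acsbg1 −0.61 (adjusted p = 0.000165), Agt −0.59 (adjusted p = 0.000774), Aldh1l1 −0.50 (adjusted p = 0.00203) and Gfap −0.50 (adjusted p = 0.00357) added), where 5549 and 3526 of all genes were called. Over IgG, 2 were higher and 1 lower under the block, with Aqp4 0.72 (adjusted p = 0.000471) and Aldh1l1 −0.40 (adjusted p = 0.024) added, where 3134 and 1268 of all genes were called. IgG over input then had 0 higher and 7 lower, with Agt −0.69 (adjusted p = 0.000205), Gja1 −0.38 (adjusted p = 0.0349) and Acsbg1 −0.30 (adjusted p = 0.0442) added, where 3958 and 3892 genes were called. Of all calls, 63.7% were higher for YTHDF2 over input, 97.7% for YTHDF2 over IgG and 54.3% for IgG over input. With RLE size factors the first 2 were 52.5% and 84.3%, and with TPM values YTHDF2 over input was 82.9% and IgG over input 79.9%. With library size alone, IgG over input was 64.8%.

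Of the 30 further astrocyte genes, 4 were higher over IgG and 0 lower: Kcnj10, the astrocyte potassium channel, 2.04 (adjusted p = 3.44e-05), Ppp1r3c, a glycogen regulator, 1.52 (adjusted p = 8.37e-05), Dio2, which activates thyroid hormone, 1.93 (adjusted p = 0.00017), and Tril, 1.63 (adjusted p = 0.0176). Over input, 3 were higher (Ppp1r3c 1.16, Kcnj10 1.22 and Dio2 0.84) and 10 were lower. Among 30 regulators of astrocyte formation, 3 were higher over IgG: Il6st, the shared receptor chain of the LIF and CNTF family, 1.06 (adjusted p = 0.00236), Notch2, 0.94 (adjusted p = 0.00251), and Olig2, 1.03 (adjusted p = 0.00462). By comparison, 14.3% of all genes were called higher over IgG and 0.330% lower, and 30.7% and 17.5% over input.

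The untreated WT libraries without a pull-down differed in level between the 3 assays. The tables were normalized on their own, and per the labels' protocols the RNA-seq libraries were made by one method and those of both pull-down series, inputs included, by another. Gfap had 1493, 1454 and 1293 TPM in the inputs of the YTHDF2 series, 149, 729.8 and 267 TPM in the inputs of the m6A series and 106, 174 and 109 TPM in RNA-seq at 0 h. Aldh1l1 had 262, 252 and 179 TPM in the YTHDF2 inputs, 112, 202 and 154 TPM in the m6A inputs and 17.1, 30.6 and 17.3 TPM in RNA-seq. Gjb6 ran the other way, at 0.133, 0.177 and 0.242 TPM in the YTHDF2 inputs, 0.583, 1.42 and 0.482 TPM in the m6A inputs and 1.86, 1.66 and 2.63 TPM in RNA-seq. Acsbg1 was highest in the m6A inputs, with 386, 505 and 437 TPM, against 271, 305 and 192 TPM in the YTHDF2 inputs and 116, 71.8 and 55.9 TPM in RNA-seq. If the YTHDF2 series is read by the sample titles, its inputs are the libraries described as YTHDF2, with 1234, 1052 and 1724 TPM of Gfap. No test was made across tables, and what sets these levels apart was not tested.

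**Figure D5:**
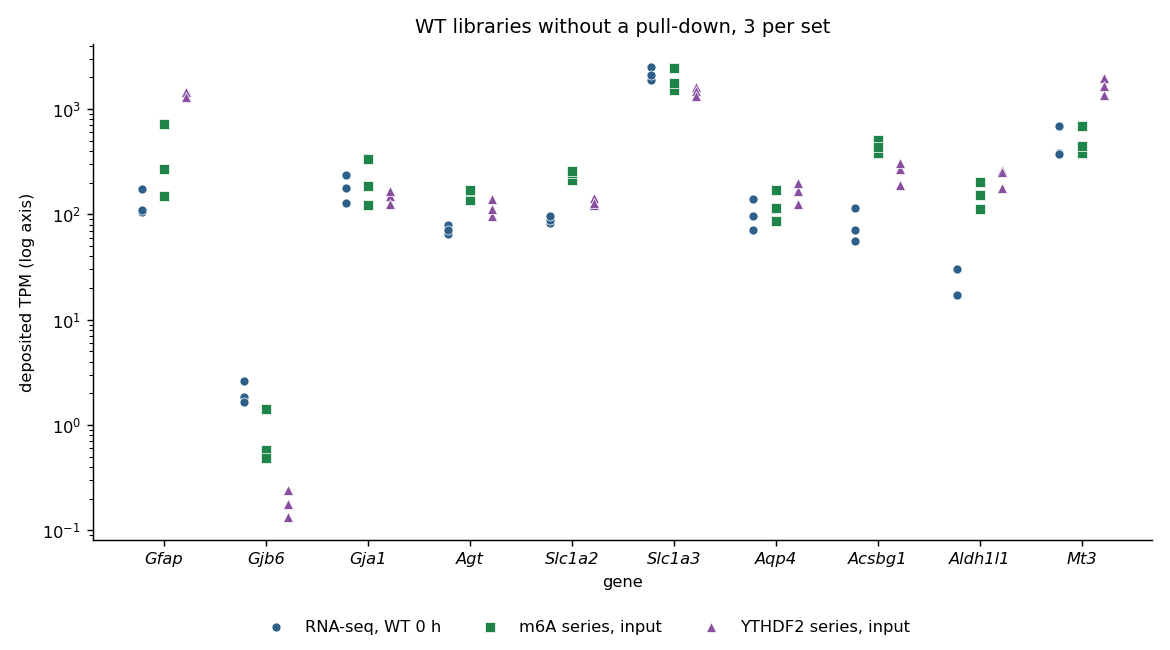
Deposited TPM (vertical log axis) of the 10 genes in WT libraries without a pull-down: RNA-seq at 0 h, inputs of the m6A series and inputs of the YTHDF2 series, 3 libraries each, as points. Slc1a3 is between 1332 and 2538 TPM throughout, while Gfap and Aldh1l1 are higher and Gjb6 lower in the inputs of the YTHDF2 series than in RNA-seq.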

How the data were processed

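Per the submitters' processing notes, reads were handled with bcl2fastq 2.17.1.14, Trimmomatic 0.32 and STAR 2.5.2a on GRCm38; the read counter is not given in the sources used here, and neither are the annotation and the strand setting. The authors deposited raw counts and TPM values per gene for 33 libraries (18 RNA-seq, 6 m6A, 9 YTHDF2). The members and gene lists were chosen with earlier results of these data known.

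Counts were fitted per assay with edgeR 4.0.16 (R 4.3.3; TMM normalization, filterByExpr with a minimum count of 10, glmQLFit, glmQLFTest) over all groups of the assay, and p-values were adjusted over all genes tested by Benjamini-Hochberg at 0.05. SE is the log2 change divided by the square root of F. CPM values are counts scaled by the TMM-adjusted library size. All 10 genes are named, with list genes called by the test. Gjb6 passed the filter in the RNA-seq and m6A tables and not in the YTHDF2 table.

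Same-numbered libraries deviated together across hours within a genotype (lowest correlation 0.126 over 18 pairs) and in the YTHDF2 series (0.353 over 9 pairs), which counts as pairing (over 0.1 in every pair). The other groups did not meet that rule. Alternatives were DESeq2 1.42.0, limma 3.58.1 on log2(TPM + 1), RLE size factors, scaling by library size alone or by 81 ribosomal protein genes, omission of the count filter, a fit of only the libraries compared, the replicate block, each library left out, and the swapped titles. The edgeR steps were tested on simulated data. The genes nearest in pattern to Gfap are not reported here.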

Additional observations from a re-analysis of the deposited data

How the results depend on the processing

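Of 1627 recomputed log2 changes of single genes, 1336 kept their direction and side of the threshold, 94 lost a call and 114 gained one. A further 77 changed sign with no call in either fit. Another 6 reversed, which means a change of sign where at least one of the fits gave a call. All 6 reversals came from naming the libraries by title: YTHDF2 over input gave −0.90 for Gja1, 0.70 for Slc1a2, 0.76 for Slc1a3 and 1.57 for Mt3, YTHDF2 over IgG gave 1.35 for Mt3, and IgG over input gave 0.22 for Mt3. By title, 4 genes were called higher for YTHDF2 over IgG (2422 of all genes higher, 2873 lower) and 1 lower for IgG over input (47 higher, 2040 lower).

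The number of the 10 genes called at 4 h over 0 h in libraries labelled cKO, 2, was 0 with library size alone, TPM values, ribosomal scaling or the compared libraries alone. In WT libraries the number, 3, was 1 with library size alone, 0 with TPM values or ribosomal scaling, 7 with DESeq2 (2804 of all genes higher) or no low-count filter (2203 of 21887 higher), and 9 with the compared libraries alone, all of them higher. For m6A, where 0 were called, 1 (Slc1a2) was with RLE size factors, library size alone, no filter or DESeq2, and 4 with TPM values, all higher. For YTHDF2 over input, 4 became 8 with RLE size factors (3545 of all 14255 genes higher, 3211 lower), DESeq2 (3740 higher, 3402 lower) or the compared libraries alone (3398 higher, 3206 lower of 13989), each time with 1 of the 10 higher and 7 lower, and 2 with TPM values, 1 higher and 1 lower (5980 and 1233 of all genes).

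With the replicate block, the pairing by number gave 5 genes at 4 h over 0 h in libraries labelled cKO, 9 in WT, 8 for YTHDF2 over input, 3 for YTHDF2 over IgG and 7 for IgG over input. Replicate numbers did not meet the pairing rule across genotypes (lowest correlation −0.085) or in the m6A series (0.071). Across genotypes at one hour, 2 of 6 libraries at 0 h, 0 at 2 h and 3 at 4 h correlated best with their own number in the other genotype. In the m6A series 6 of 6 did, a hint from the data and not from the labels. There the block gave 5 genes higher (Gfap, Gja1, Slc1a2, Slc1a3 and Aqp4) and 2 lower (Acsbg1 and Mt3), with 2441 of all 14167 genes higher and 2932 lower. Across genotypes the block gave 1 gene higher (Aldh1l1) and 4 lower at 0 h (1420 of all 14029 higher, 1930 lower), 7 lower at 2 h (1501 and 1685), and 1 higher (Aldh1l1) and 7 lower at 4 h (1855 and 1721). For the slope difference, 0 of the astrocyte genes were called under the block too, where 65 of all 14029 genes had a higher and 24 a lower slope.

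Leaving out 1 library, or all hours of 1 replicate labelled cKO, gave 2 to 5 genes for the genotype at 0 h, 2 to 7 at 2 h and 2 to 8 at 4 h. The calls over all 14114 to 14397 genes tested ranged too. They were 306 to 1971 higher and 567 to 2351 lower at 0 h. The ranges were 371 to 2619 higher and 438 to 2659 lower at 2 h, and 617 to 2918 higher and 562 to 2537 lower at 4 h. It gave 0 to 3 over time in libraries labelled cKO, 1 to 8 in WT and 0 to 1 for m6A. The causes of these changes were not tested. Depth limits Gjb6 most, with 4 reads in each input of the YTHDF2 series.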
